A study of Mus musculus with 12 samples.

Results

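The mRNAs of 10 dual-specificity MAPK phosphatases were measured in activated mouse splenic B cells, with DNA damage and with inhibition of the ATM kinase before that damage. They are Dusp1, Dusp2, Dusp4, Dusp5, Dusp6, Dusp7, Dusp8, Dusp10, Dusp14 and Dusp16, picked by gene symbol from a table of 29486 genes. All 10 had at least 10 normalized counts in every library and belong to the 15581 genes that passed the filter of 10 normalized counts in at least 4 libraries. Primary B cells of C57BL/6Babr mice aged 8 to 12 weeks were grown in 3 conditions with 4 libraries each, and poly(A) RNA was sequenced. All cells received lipopolysaccharide (LPS, 10 µg/ml), a bacterial cell wall component that activates B cells. LPS cells had this mitogen alone for 48 h. LE cells were given etoposide (20 µM, 4 h) after the LPS, a topoisomerase II poison that breaks both DNA strands. LEKU cells had LPS for 47 h and the ATM inhibitor KU55933 (10 µM) for 1 h before the 4 h of etoposide. No cells received KU55933 without etoposide, and the labels do not say whether the LPS cells stayed in culture for the further 4 h. Each Illumina index was carried by libraries of a single condition, so that index and condition cannot be told apart.

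MAP kinases (ERK, JNK and p38) are switched on when a threonine and a tyrosine in their activation loop are phosphorylated. Dual-specificity phosphatases remove both phosphates and so switch the kinases off. Several of them are themselves transcribed in response to MAP kinase activity and act as feedback inhibitors. Dusp1, Dusp2, Dusp4 and Dusp5 encode nuclear, inducible enzymes, and Dusp5 acts on ERK alone. Dusp6 and Dusp7 encode cytoplasmic enzymes that prefer ERK. Dusp8, Dusp10 and Dusp16 encode enzymes that prefer JNK and p38. Dusp14 encodes a small atypical enzyme that lacks the kinase-binding domain. In B cells, ERK, JNK and p38 act downstream of the antigen receptor, CD40 and Toll-like receptors.

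The promoters of Dusp8, Dusp1 and Dusp5 are shown first, because these members had values past 2-fold with etoposide and their promoters hold motifs that few promoters hold. They were picked by both traits, and no link between motif and ratio was tested. The sequences were taken from RefSeq on GRCm38.p6, from 250 bases before to 50 after the gene start, and 9 of the 10 members were found in that table. Dusp4 was not. Each is written 5′ to 3′ on the strand of the gene. Capitals mark the cAMP response element (CRE, TGACGTCA, which reads the same on both strands) in Dusp8 and Dusp1, and the serum response element in Dusp5.
Dusp8, chr7:142095235-142095534, minus strand: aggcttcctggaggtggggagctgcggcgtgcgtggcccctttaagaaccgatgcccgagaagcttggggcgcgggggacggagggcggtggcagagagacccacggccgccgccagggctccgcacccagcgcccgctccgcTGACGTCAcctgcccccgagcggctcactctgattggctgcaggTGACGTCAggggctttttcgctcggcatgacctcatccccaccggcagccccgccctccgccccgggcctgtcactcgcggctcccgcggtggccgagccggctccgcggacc
Dusp1, chr17:26508423-26508722, minus strand: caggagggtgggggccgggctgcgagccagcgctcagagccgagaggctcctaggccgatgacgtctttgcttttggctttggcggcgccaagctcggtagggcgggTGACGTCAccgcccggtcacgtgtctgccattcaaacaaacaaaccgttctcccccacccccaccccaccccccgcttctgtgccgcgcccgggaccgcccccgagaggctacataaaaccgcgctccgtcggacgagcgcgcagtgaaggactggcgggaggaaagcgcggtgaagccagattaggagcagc
Dusp5, chr19:53528895-53529194, plus strand: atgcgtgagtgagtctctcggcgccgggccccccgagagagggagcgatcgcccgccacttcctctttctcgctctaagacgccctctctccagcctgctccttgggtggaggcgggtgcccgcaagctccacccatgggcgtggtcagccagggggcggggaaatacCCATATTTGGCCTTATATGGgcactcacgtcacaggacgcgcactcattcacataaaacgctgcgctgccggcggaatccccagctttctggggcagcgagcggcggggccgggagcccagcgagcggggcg

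Dusp8 held 2 CRE matches, starting 107 and 63 bases before the gene start. Of all 32851 promoter windows of this length, 1.79% held the CRE letters and 0.0396% (13 windows) held 2 or more copies. Dusp1 held 1 CRE, starting 143 bases before the gene start. Dusp5 held 2 adjacent serum response elements, starting 82 and 72 bases before the gene start. Among all windows, 1.63% held that element and 0.0183% (6 windows) held 2 or more. Dusp2, also past 2-fold with etoposide, held neither a CRE nor a serum response element. All windows were counted regardless of GC content, which was 57.3% (Dusp6) to 78.7% (Dusp7) in the 9 members. The E-box CACGTG, found in 7.15% of windows, was present in Dusp1 and Dusp2, and the GC box GGGCGG, found in 35.7%, was present in 8 of the 9 members, all but Dusp6. None of the 9 windows held AP-1 letters (TGANTCA, 7.81% of windows), a TATA box spelled TATAAA (13.6%), an NF-kB element (8.46%) or a p53 half-site (8.36%). The searches covered both strands, and the motifs were picked with these promoters in view. In Dusp1 a GC box lies on each side of the CRE, and no match of one motif overlapped a match of another in these windows. A match is a run of letters and not a measured binding site. In the GENCODE M21 gene models, 203 bases of the Dusp1 window and 262 bases of the Dusp8 window lie in introns of longer transcripts of the same gene, while 214 bases of the Dusp5 window lie outside the gene.

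**Figure D1:**
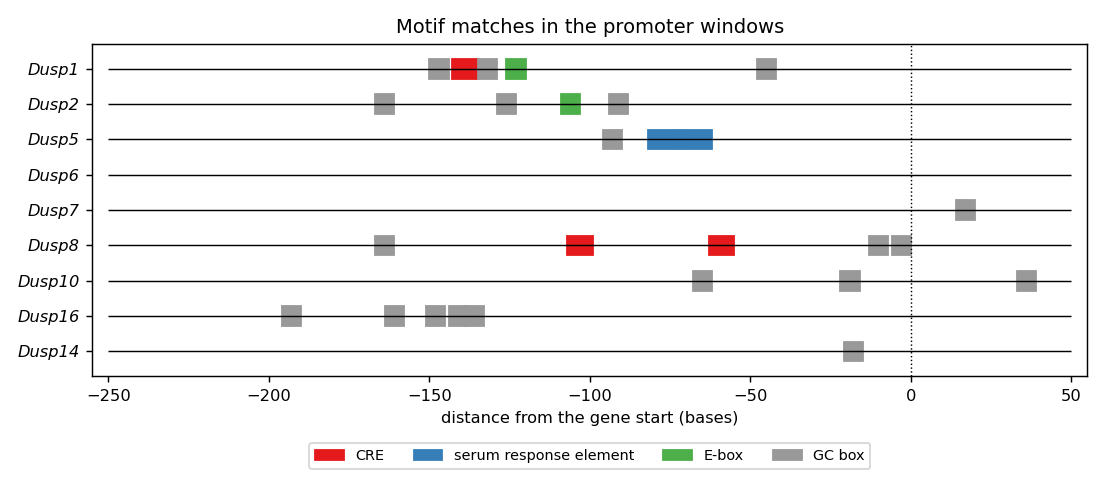
Motif matches in the promoter windows of 9 members, drawn to scale from 250 bases before to 50 bases after the RefSeq gene start (dotted line). Boxes are matches on either strand, coloured by motif. Dusp8 has 2 CREs, Dusp1 has 1, Dusp5 has 2 adjacent serum response elements, and Dusp6 has no match.

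The table held 12 columns with totals of 20.4 M to 30.6 M, and medians of 22.3 M in LPS, 24.9 M in LE and 23.8 M in LEKU (M for mega). For every gene, the columns of a condition were one value times a factor per library (largest deviation 2.7e-14 on the log2 scale). They are thus fitted means and hold no spread between replicates. No test between conditions could be made, no p is given, and the error given is a 95% interval that covers counting error only and is too narrow as a measure of biological error. A gene is called higher or lower where its log2 ratio, on normalized counts plus 1, is at least 1 in size (2-fold). Of the listed p53 target genes, which DNA damage is known to induce, 22 of 27 were higher in LE than in LPS. Among them were Plk2 (266.8 to 9794 normalized counts), a stress kinase, and Cdkn1a (418.3 to 13323), a cell cycle inhibitor. Perp (4.708 to 197.7) and Eda2r (3.932 to 122.8) were under 10 in LPS and passed the filter through the drug-treated cells. All 9 B cell markers passed the filter. Their summed level was 149492 normalized counts in LPS, 76629 in LE and 86265 in LEKU, with Cd22 at 24495, 4237 and 5032 and Pax5 at 5632, 1112 and 1161. Of 8 T cell markers, 6 stayed under 10 in each condition and the sum (445.6, 318.1 and 286.8) was mostly Lck. The macrophage and monocyte markers summed to 5645, 4614 and 4236, of which Mpeg1 gave 5219, 4148 and 3805. Which cells this Mpeg1 RNA came from was not tested. Of the 7 markers of this list that passed the filter, 4 had higher values in LE than in LPS. Of these, 2 were past 2-fold, Cd14 (5.258, 23.97 and 40.4) and Csf1r (4.245, 10.24 and 9.671). None of the 7 was lower past 2-fold. Both Cd14 and Csf1r were under 10 in LPS and passed the filter through the drug-treated cells, Csf1r through LE alone. Cd68 was at 106.3, 209.4 and 174.4. The red blood cell markers summed to 221.8, 183.9 and 115.9. Neutrophil markers (4.855, 19.87 and 9.352) and NK cell markers (2.474, 3.167 and 3.357) were near 0. The part of these shifts in the results on the phosphatases was not tested. In such bulk RNA, fewer cells of a type and less RNA per cell cannot be told apart.

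Summed over the 10 members, the level was 4857 normalized counts in LPS, 7250 in LE and 10563 in LEKU. Dusp4 alone made up 25.2% of this sum in LPS, 18.1% in LE and 43.6% in LEKU. To compare genes, normalized counts were divided by the kilobases of exon in the GENCODE M21 annotation. On this per-length scale the order in LPS was Dusp4 (448 per kb), Dusp2 (334), Dusp7 (168), Dusp16 (151), Dusp6 (124), Dusp10 (80.9), Dusp1 (80.2), Dusp5 (75.6), Dusp14 (54.8) and Dusp8 (5.24). The counting intervals of Dusp10 and Dusp1, and of Dusp1 and Dusp5, overlapped. In LE the highest level was that of Dusp2 (808 per kb), followed by Dusp4 (478) and Dusp7 (276), and Dusp1 and Dusp5 could not be ordered (both 177). In LEKU, Dusp4 came first (1682 per kb), then Dusp2 (690), Dusp5 (351) and Dusp1 (235), while the intervals of Dusp7 (133) and Dusp6 (121) overlapped, as did those of Dusp10 (105) and Dusp14 (103). Dusp5 moved from the eighth place in LPS to the third in LEKU, and Dusp7 from the third to the sixth. Dusp8 was last in all 3 conditions.

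**Figure D2:**
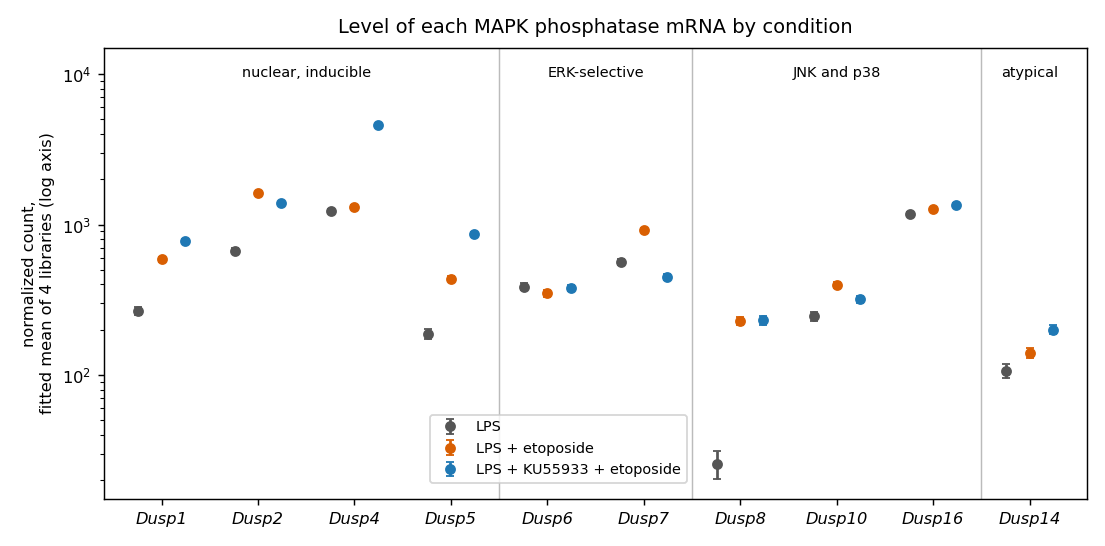
Normalized count of each member (log axis), as the fitted mean of the 4 libraries of a condition, with 95% counting intervals as bars (often smaller than the point). Dusp8 stands at 25.54 in LPS and near 230 with etoposide, and Dusp4 stands at 1226, 1310 and 4607.

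The comparison of LE with LPS asks which phosphatase mRNAs differ once DNA is broken. Dusp8, Dusp2, Dusp5 and Dusp1 were higher in LE by 8.66-, 2.42-, 2.33- and 2.21-fold. No member was lower past 2-fold. Thus 4 of 10 members were higher, where 13.7% of all genes were higher and 6.61% were lower. The median log2 ratio was 0.695 for the members and -0.055 for all genes, and 9 of the 10 members lay above 0. By role, 3 of the 4 nuclear, inducible members, none of the 2 ERK-selective members, 1 of the 3 JNK and p38-selective members and not the atypical Dusp14 were past 2-fold.

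Among the nuclear members, the deposited values of Dusp2, first known from activated lymphocytes, were 538.4, 597.3, 621.3 and 559.8 in LPS replicates 1 to 4 and 1587, 1779, 2155 and 1725 in LE. Dusp1, which acts on p38, JNK and ERK, had 213.8, 237.2, 246.7 and 222.3 in LPS and 575.9, 645.4, 781.7 and 625.7 in LE. Dusp5 had 150.5, 167.0, 173.7 and 156.5 in LPS and 428.8, 480.6, 582.1 and 465.9 in LE. For these 3 genes every LE column was above every LPS column, but since the columns of a condition differ by library size alone, this shows no replicate agreement. After scaling, Dusp2 was at 669.1 in LPS and 1618 in LE (log2 ratio 1.27, counting interval 1.21 to 1.34), Dusp5 at 187.1 and 437.2 (1.22, 1.10 to 1.36) and Dusp1 at 265.7 and 587.1 (1.14, 1.04 to 1.25). Dusp4, the fourth nuclear member, was level by contrast, at 1226 and 1310 normalized counts (log2 ratio 0.10, 0.04 to 0.15).

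The ERK-selective pair differed from each other. Dusp7 was at 563.5 in LPS and 924.8 in LE (log2 ratio 0.71, 0.64 to 0.79), short of 2-fold. Dusp6, a feedback inhibitor of ERK, was at 387.1 and 348.7 (log2 ratio -0.15, -0.26 to -0.04), and its sign turned when libraries were scaled by their totals (0.02). Of the JNK and p38-selective members, Dusp8 had the largest ratio of the family. Its deposited values were 20.55, 22.80, 23.72 and 21.37 in LPS and 224.4, 251.5, 304.7 and 243.8 in LE, and its normalized count went from 25.54 to 228.8 (log2 ratio 3.11, 2.86 to 3.5). The LPS value rests on a sum of 88 over the 4 columns, the smallest of any member. These columns are fitted values, not observed read counts. Dusp10 was at 246.1 and 393.9 (log2 ratio 0.68, 0.56 to 0.80), and Dusp16 at 1180 and 1261 (0.10, 0.04 to 0.15). Dusp14 was at 106.7 and 140.6 (0.40, 0.21 to 0.59).

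The comparison of LEKU with LE asks how the mRNAs differ when ATM was inhibited before the damage. Dusp4 was higher in LEKU by 3.52-fold and Dusp7 was lower by 2.08-fold. These were the only members past 2-fold, 1 of 10 in each direction, where 1.8% of all genes were higher and 4.51% were lower. The median log2 ratio was 0.113 for the members and -0.031 for all genes. Dusp4 lay at the 99.8 percentile of all genes by its log2 ratio and Dusp7 at the 3.95 percentile.

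The deposited values of Dusp4 were 1285, 1440, 1744 and 1396 in LE and 4200, 4736, 5074 and 5157 in LEKU. It is a nuclear phosphatase that acts on ERK and JNK. After scaling it went from 1310 to 4607 normalized counts (log2 ratio 1.81, 1.77 to 1.86). No LE column reached any LEKU column, but since the columns of a condition differ by library size alone, this shows no replicate agreement. Dusp5 was next, with 791.1, 892.1, 955.8 and 971.5 in the LEKU columns and a normalized count of 437.2 in LE and 867.9 in LEKU. Its fold of 1.98 lay just short of 2-fold (log2 ratio 0.99, 0.91 to 1.07) and passed it under TMM factors, library totals or size factors over all genes. Dusp1 was at 587.1 and 777.8 (log2 ratio 0.41, 0.33 to 0.48). Dusp2 was the one nuclear member with a lower value in LEKU, at 1618 and 1382 (-0.23, -0.28 to -0.18).

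Dusp7 had deposited values of 907.1, 1017, 1231 and 985.6 in LE and 405.4, 457.1, 489.7 and 497.8 in LEKU. Its normalized count was 924.8 in LE and 444.7 in LEKU (log2 ratio -1.06, -1.14 to -0.98), so that the interval spans the 2-fold limit. The LEKU level was also under that of LPS cells (563.5). Dusp6, its closest relative here by role, was at 348.7 and 379.9 (log2 ratio 0.12, 0.02 to 0.23). Dusp8 was at 228.8 and 230.8 (0.01, -0.12 to 0.14), and the sign of so small a ratio turned with upper quartile scaling (-0.003). Its interval leaves room for a difference of at most 0.14 on the log2 scale by counting error. Dusp10 was at 393.9 and 319.8 (-0.30, -0.41 to -0.20), Dusp16 at 1261 and 1353 (0.10, 0.05 to 0.16) and Dusp14 at 140.6 and 199.8 (0.50, 0.35 to 0.66).

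**Figure D3:**
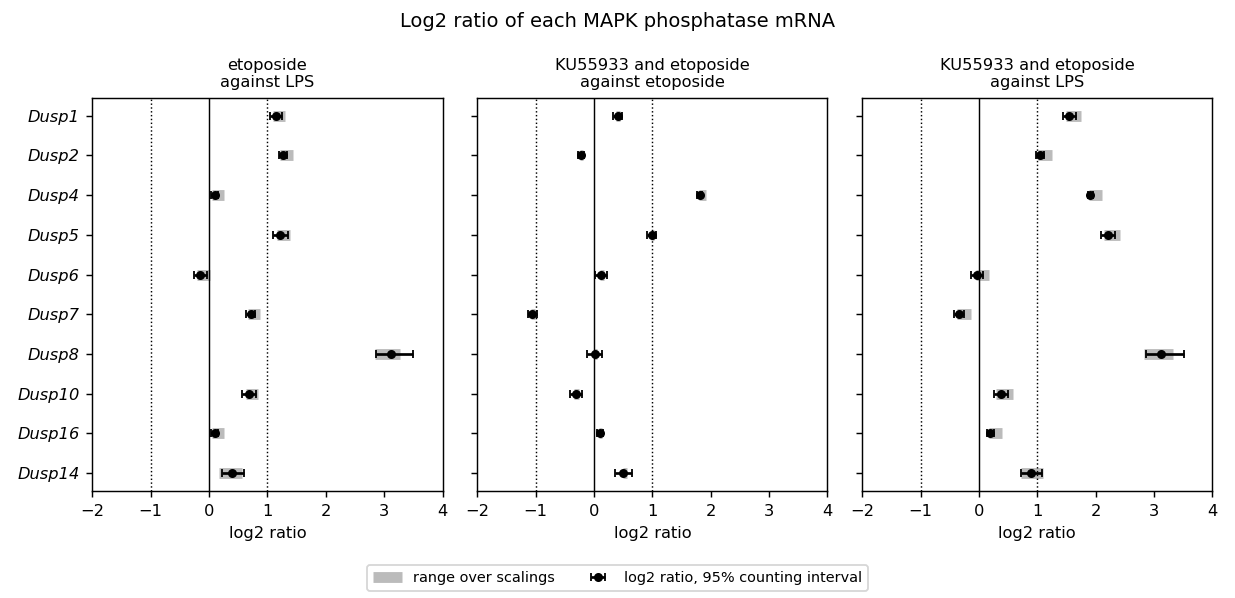
Log2 ratio of each member in the 3 comparisons, with 95% counting intervals as bars and the range over 5 other scalings as grey bands. Dotted lines mark 2-fold. Dusp8 lies beyond 2-fold in both comparisons with LPS, and Dusp4 in both comparisons that hold LEKU.

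The comparison of LEKU with LPS shares libraries with each of the other two and adds no independent evidence. In it 5 of 10 members were higher (Dusp8, Dusp5, Dusp4, Dusp1 and Dusp2) and none was lower, where 10.5% of all genes were higher and 6.41% were lower. The log2 ratios were 3.13 (2.87 to 3.52) for Dusp8, 2.21 (2.09 to 2.34) for Dusp5, 1.91 (1.86 to 1.96) for Dusp4, 1.55 (1.44 to 1.66) for Dusp1 and 1.05 (0.98 to 1.12) for Dusp2. Dusp14 was at 106.7 and 199.8 (log2 ratio 0.90, 0.73 to 1.09) and passed 2-fold when scaled by library totals (1.10). Dusp10 (0.38), Dusp16 (0.20), Dusp6 (-0.03) and Dusp7 (-0.34) stayed within 2-fold. The sign for Dusp6 turned with TMM factors and with library totals. The median was 0.973 for the members and -0.010 for all genes.

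**Figure D4:**
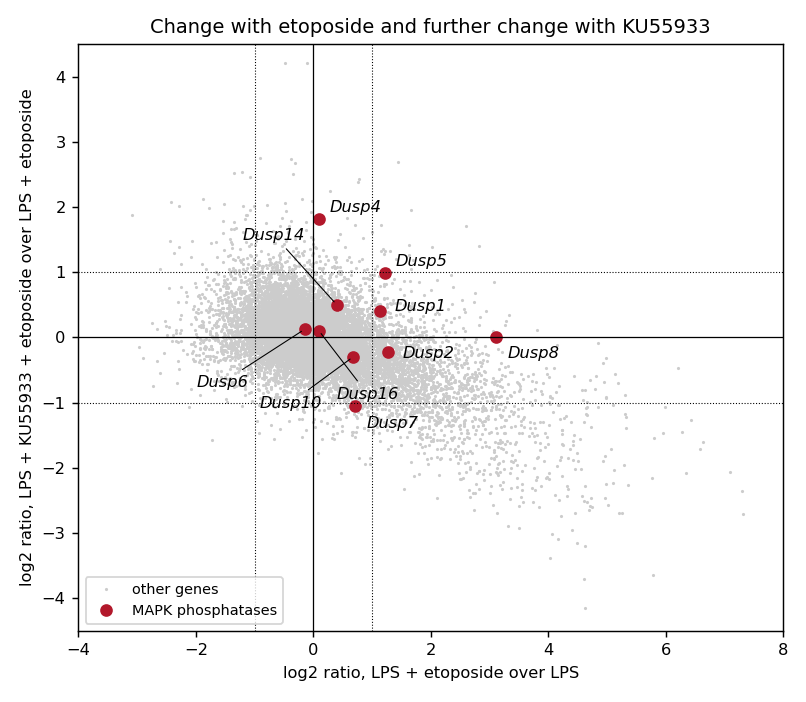
Log2 ratio of LE over LPS (horizontal axis) and of LEKU over LE (vertical axis) for the 10 members (red) and all genes that passed the filter (grey). Both axes use the LE libraries, so the 2 ratios of a gene are not independent. Dusp4 lies high near the vertical axis, Dusp8 far right near the horizontal axis, and Dusp5 at 1.22 and 0.99.

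The members thus took different courses over the 3 conditions. Dusp8 had log2 ratios of 3.11 between LPS and LE and 0.01 between LE and LEKU, Dusp4 had 0.10 and 1.81, and Dusp5 had 1.22 and 0.99. Dusp7 was above its LPS level in LE and below it in LEKU. Dusp16 and Dusp6 stayed within 0.20 on the log2 scale in each comparison as scaled here. Among 10872 genes with a mean of at least 100 normalized counts, the genes nearest to Dusp8 by Euclidean distance over the LE against LPS and LEKU against LE log2 ratios were Ptgs2 (distance 0.105), which encodes the inducible cyclooxygenase, Rasd1 (0.230), a Ras-related GTPase, and Smox (0.257), spermine oxidase. Ptgs2 was at 116.3 normalized counts in LPS, 976 in LE and 1047 in LEKU. These distances rest on 3 fitted means per gene.

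Other genes of the pathway were described from lists, and their counts stand against the shares of all genes given above, 13.7% higher and 6.61% lower in LE against LPS, 1.8% and 4.51% in LEKU against LE, and 10.5% and 6.41% in LEKU against LPS. Of 11 other dual-specificity phosphatases that passed the filter, 3 were higher in LE than in LPS and none lower, with a median log2 ratio of 0.083. They were Dusp15 (2.236 to 70.37 normalized counts), Dusp9 (14.96 to 37.87) and Dusp18 (5.122 to 13.01), all low and named after their values were seen. Dusp15 and Dusp18 were under 10 in LPS and passed the filter through the drug-treated cells. Dusp9, an ERK-selective enzyme of the same class as Dusp6 and Dusp7, was at 15.72 in LEKU, and it and Dusp15 (16.59) were the 2 genes of this list lower in LEKU than in LE. Among 9 MAP kinases, none was higher and 1 was lower in LE, the p38 isoform gene Mapk11 (768.9 to 237.2, log2 ratio -1.69), and the list's median was -0.449. None of the 9 passed 2-fold between LEKU and LE.

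Upstream, of 22 MAP2 and MAP3 kinases, 3 were higher in LE and 1 was lower, shares close to those of all genes, and the median log2 ratio was -0.098. Map3k13, a kinase of the JNK pathway, went from 45.99 to 301.3 (log2 ratio 2.69), and Map3k5, the stress-responsive kinase ASK1, from 2860 to 956.7 (-1.58). The other two higher genes, named after their values were seen, were Zak (1.43) and Map2k3 (1.07), both of which encode activators of stress kinases. None of the 22 passed 2-fold between LEKU and LE. Of 10 MAPK-activated kinases, Mapkapk3 (894.7 to 3921, log2 ratio 2.13) and Rps6ka2 (108.7 to 225.4, 1.05) were higher in LE. Of 6 Sprouty and Spred inhibitors, 1 was lower in LE, the scarce Spry1 (12.11 to 4.746), and in LEKU against LPS Spred2 was lower (349.9 to 161.7, log2 ratio -1.11) and Spry2 higher (44.57 to 92.29). Of 7 other phosphatases that act on MAP kinases, Ppm1d, a p53 target that encodes the p38 phosphatase WIP1, was higher in LE (885.2 to 3649, log2 ratio 2.04) and lower in LEKU than in LE (1824), at the 2-fold limit.

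The list of genes whose transcription ERK can drive held 16 that passed the filter, and ERK activity was not measured. In LE 6 were higher and 1, Myc, was lower, with a median log2 ratio of 0.854. Fos, a subunit of AP-1, went from 57.9 to 827.2 normalized counts (log2 ratio 3.81) and was at 895.3 in LEKU. Fosl1, another AP-1 subunit, went from 23.49 to 333.6 (3.77) and was at 64.98 in LEKU (-2.34 against LE). Between LEKU and LE 1 was higher and 4 were lower, with a median of -0.332. The higher one was Fosl2 (589.7 to 1560), and the lower ones were Fosl1, Egr1 (838.2 to 194.5, log2 ratio -2.10), Egr2 and Phlda1. Fosl2 had log2 ratios of 2.82 in LE against LPS and 1.40 in LEKU against LE. Against LPS, 7 of the 16 were higher in LEKU and 2 were lower. In the p53 target list, 3 of 27 were lower in LEKU than in LE (Ppm1d, Perp and Eda2r), with a median of -0.566.

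**Figure D5:**
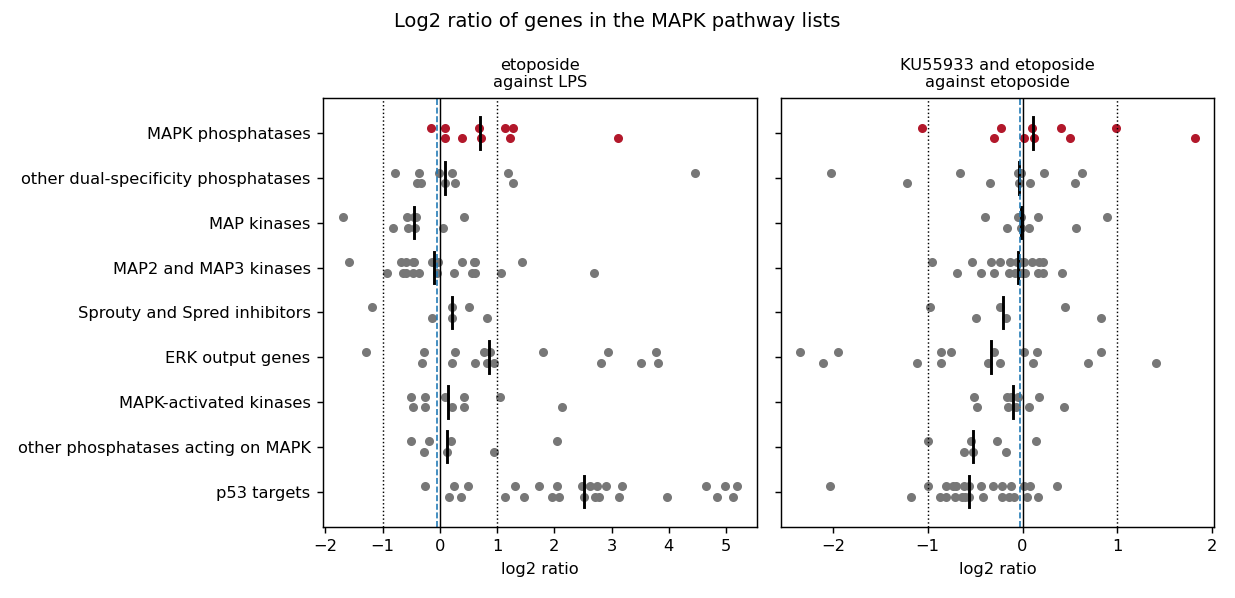
Log2 ratios of the genes of each list that passed the filter in LE against LPS (left) and LEKU against LE (right), 1 point per gene, with the list's median as a black bar, 2-fold as dotted lines and the median of all genes as a blue dashed line. The members (red) reach from -0.15 to 3.11 on the left and from -1.06 to 1.81 on the right.

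Some reads cannot be assigned with certainty. The study's methods name a stranded library kit, but the strand setting of the counting was not given in the sources used here. Dusp1 (ENSMUSG00000024190, chr17:26505590-26562128, minus strand, GRCm38) shares 11 exonic bases with Ergic1 on the opposite strand, whose normalized count was 2196, 2980 and 1671 in LPS, LE and LEKU. Dusp5 (ENSMUSG00000034765, chr19:53529109-53542431, plus strand) shares 547 exonic bases with the antisense gene AC137853.2, and Dusp8 (ENSMUSG00000037887, chr7:142079490-142095843, minus strand) shares 66 with Gm32786, and no value was listed for these partners. Dusp4 (ENSMUSG00000031530, chr8:34807297-34819894, plus strand) and Dusp7 (ENSMUSG00000053716, chr9:106368632-106375724, plus strand) share none. The exonic length was 3311 bases for Dusp1, 2473 for Dusp5, 4870 for Dusp8, 2740 for Dusp4 and 3356 for Dusp7.

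In LE against LPS, 2136 genes were higher and 1030 lower, a share of 67.5% higher, which was 78.7% with library totals, 55.9% with quantile normalization and 88.6% with the columns unscaled. In LEKU against LE, 281 were higher and 702 lower, a share of 28.6%, against 39.5% with quantile normalization and 17.8% unscaled. In LEKU against LPS, 1643 were higher and 998 lower, a share of 62.2%, against 78.1% with library totals and 81.9% unscaled. Library totals moved the median of all genes by 0.168 in LE against LPS and 0.206 in LEKU against LPS. Leaving the columns unscaled moved it by 0.374, by -0.107 in LEKU against LE, and by 0.267.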

How the data were processed

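Splenic B cell poly(A) RNA was sequenced in 12 libraries, 4 for each of LPS, LE and LEKU (TruSeq Stranded mRNA, 100-base single-end reads). Per the study's methods and the submitters' processing notes, the authors trimmed reads with Trim Galore and cutadapt 1.2.1, aligned them to GRCm38 with TopHat2 2.0.12, counted genes with HTSeq on Ensembl 78 and fitted DESeq2 1.6.3. The deposited table of normalized counts holds signal values that are fitted means per condition times a library factor. That DESeq2 version can draw fitted values of the conditions toward each other, and whether it did was not tested. The authors' 3 deposited tables of comparisons (fold changes and p-values) were not used.

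Each column was divided by a size factor, the median of ratios over the 19515 genes at 1 or more in every column. The plan had named genes above 0, but the smallest value is 0.0635, so every gene would have counted, and that version was added as an alternative after seeing the data. Factors ran from 0.805 to 0.929 in LPS, 0.981 to 1.33 in LE and 0.912 to 1.12 in LEKU. Log2 ratios used a pseudocount of 1, which slightly lowers the ratios of scarce genes. The 95% intervals are exact Poisson intervals (levels) or exact conditional binomial intervals without the pseudocount (ratios), on columns summed per condition, and cover counting error only. The summed columns are fitted values rounded to whole numbers, not observed read counts. The calculations used Python 3.11.15, numpy 2.4.6, scipy 1.17.1 and pandas 2.3.3, were tested on simulated data, and drew on GENCODE M21 exons (found for 15502 of 15581 genes) and the RefSeq promoter table (GRCm38.p6).

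The members and lists were chosen with earlier results of these data known. The text names all members, at most 2 genes per other list and comparison with the largest log2 ratio past 2-fold and a mean of at least 100, and the 3 genes nearest to Dusp8, the member with the largest etoposide ratio. Genes outside this rule are named as such or to fill a count of 5 or fewer. Alternatives were 5 scalings and size factors over all genes, pseudocounts of 0.5 and 5, no filter or a minimum of 50, a 1.5-fold limit, and leaving out each library.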

Additional observations from a re-analysis of the deposited data

How the results depend on the processing

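No paired analysis was possible because the columns of a condition are one fitted mean times a factor, and for the same reason no limma fit, with or without the replicate number as a block, was run. Leaving out each library in turn moved no count of members past 2-fold, but since each column repeats the same fitted mean this says little about stability. No log2 ratio of a member past 2-fold turned its sign in the comparison where it was past 2-fold. Members higher in LEKU than in LE numbered 1, and 2 with TMM factors, library totals, size factors over all genes (an alternative chosen after seeing the data) or a 1.5-fold limit, the added member being Dusp5. With unscaled columns 6 members were higher in LE than in LPS, Dusp7 (1.08) and Dusp10 (1.05) joining, and the signs of Dusp8 (-0.09) and Dusp16 in LEKU against LE turned. The sign of Dusp6 also turned unscaled, in LE against LPS (0.22) and in LEKU against LPS (0.24). Dusp14 passed 2-fold unscaled in LEKU against LPS (1.16). A 1.5-fold limit gave 3274 genes higher and 2786 lower in LE against LPS, 1147 and 1784 in LEKU against LE, and 3038 and 2633 in LEKU against LPS. A minimum of 50 normalized counts gave 1322 higher in LE against LPS, 407 lower in LEKU against LE and 1051 higher in LEKU against LPS, with fewer genes tested. Library totals gave 680 lower in LE and 621 lower in LEKU against LPS, and unscaled columns 404 and 540. Over the 7 MAPK pathway lists together (without p53 targets), 15 genes were higher and 4 lower in LE against LPS (24 and 11 at 1.5-fold, 2 lower unscaled), 1 and 7 in LEKU against LE (5 and 15 at 1.5-fold), and 5 were lower in LEKU against LPS (16 at 1.5-fold, 2 with library totals, 2 unscaled). The cause of these shifts was not tested, other than the lower limit and the smaller gene set by construction. The other 389 recomputed counts stayed within 1.5 times. Dusp8 in LPS, with a sum of 88 over its fitted columns, has the least precise level of the members by counting error.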
